A study of Mus musculus with 3 samples.

Results

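The 10 genes described here encode G protein-coupled receptors by which lymphocytes sense lipids and metabolites. They were listed by name, with earlier results of these data known. The list holds the sphingosine phosphate receptors S1pr1 and S1pr4, the oxysterol receptor Gpr183, and the lipid receptors P2ry10 and Gpr18. It also holds the proton-sensing receptors Gpr65 and Gpr132 and the prostaglandin E2 receptors Ptger4 and Ptger2. The last is Gpr83, a peptide receptor gene known from regulatory T cells. All 10 were found among 50600 annotated genes, of which 21764 were protein-coding. The study deposited RNA sequencing of regulatory T cells, the Foxp3-expressing CD4 T cells that restrain immune responses. There were 3 libraries in 1 group, numbered biological replicates 2, 3 and 4, and no second condition was analysed here. The cells were primary cells of strain C57BL/6NJ, activated for 16 hours according to the file headers, and the labels list no other treatment or allele. All 3 libraries carry 1 donor identifier, with sex recorded as not collected and age as unknown. Whether they stem from different animals is not stated in the labels, nor whether the cells were isolated from the animal or differentiated in culture, although a CD4 T cell differentiation protocol is linked. The SDs given here therefore measure the spread among these 3 libraries, which may be technical in part.

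Replicates 2, 3 and 4 held 41222058, 47665060 and 99097524 counted fragments, and 3 fragments were worth between 0.0303 and 0.0728 CPM (a count scaled for library total alone). Each pair of libraries differed by far more than counting noise, with a mean chi-square of 17.2 to 26.3 per gene, and none was a copy of another. All 6 regulatory T cell markers reached 1 TPM (a count scaled for both gene length and library total), with Foxp3 at 80.9 ± 3.97 TPM (SD, n = 3). Ikzf2 was the lowest of the 6 at 3.22 ± 0.655 TPM. Of 25 markers of 7 other cell types, 22 stayed below 1 TPM in every library, 11 had no fragment, and the summed level of all 25 was 7.01 to 8.38 TPM. The highest of them was Pecam1, a gene of endothelium and of some leukocytes, at 4.203 ± 0.450 TPM. The libraries also differed in sex-linked RNA: Xist was at 126, 0.331 and 36.1 TPM and the Y-linked gene Ddx3y at 0.126, 39.3 and 28.4 TPM in replicates 2, 3 and 4. Replicate 2 thus had the pattern of female cells, replicate 3 that of male cells, and replicate 4 RNA of both kinds. Replicates 2 and 3 therefore did not stem from the same single animal, although the labels give 1 donor identifier. Differences between the libraries cannot be told apart from this difference in sex.

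Receptors of this kind sit in the cell membrane and pass their signal to heterotrimeric G proteins inside the cell. In lymphocytes, sphingosine phosphate receptors draw cells out of lymphoid organs into lymph and blood, and the oxysterol receptor guides them between zones of those organs. Prostaglandin E2 and acidity raise cyclic AMP in T cells through receptors coupled to the stimulatory G protein, whereas receptors coupled to inhibitory G proteins lower it.

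All 10 receptor genes were detected at 1 TPM or more in every library, where 45.6% of protein-coding genes were. All 10 also reached 10 TPM in every library, against a background of 34.8%, and 0 of 10 reached 100 TPM, against 8.8%. Their median mean level was 28.6 TPM, beside 0.355 TPM over all protein-coding genes and 32.3 TPM over the 9926 detected ones. The receptors' median thus lay a little below that of the detected genes. The list was drawn up with these data known, so the shares above are a description. Gpr132 was the highest at 93.8 ± 5.03 TPM, followed by Gpr183, Ptger4, Gpr18, S1pr4, Gpr65, Ptger2, Gpr83, S1pr1 and, at 13.1 ± 1.55 TPM, P2ry10. Neighbours in this order kept their order in 3 of 3 libraries with no overlap of their ranges, except in 2 places. Gpr65 and Ptger2 overlapped and kept their order in 2 of 3 libraries, as did S1pr1 and P2ry10, so that neither of these pairs differed beyond its spread. In bulk RNA such as this, fewer cells of a type and less RNA per cell cannot be told apart.

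**Figure D1:**
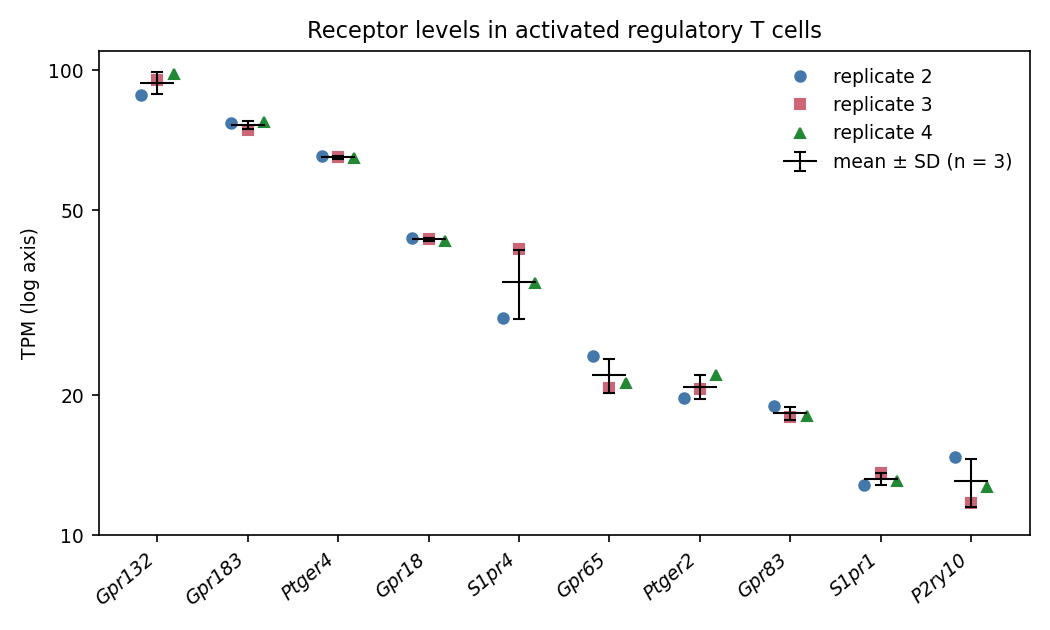
Level of each receptor gene in TPM on a log axis, with 1 point per library and the mean ± SD (n = 3) in black. The 10 genes span 13.1 to 93.8 TPM on average, and S1pr4 shows the widest spread of the 10 relative to its mean.

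The order depended on how gene length was treated. Ptger4 has 5 merged exons totalling 6648 bases, while its longest annotated transcript is 3771 bases. With the longest transcript as the length, Ptger4 was first at 90.6 ± 0.714 TPM, before Gpr132 at 73.0 ± 3.86 TPM and Gpr183 at 65.0 ± 1.38 TPM. In CPM, with no length scaling, Ptger4 was also first at 128.5 ± 1.70 CPM, against 68.0 ± 3.71 CPM for Gpr132. S1pr1 and P2ry10 were the lowest 2 of the 10 under all 3 scalings.

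Among the sphingosine phosphate receptors, S1pr4 exceeded S1pr1. S1pr1 (ENSMUSG00000045092.8), the receptor required for lymphocytes to leave the thymus and lymph nodes, lies on chr3:115710433-115715072 of mm10 (minus strand) in 2 exons. Its counts were 478, 595 and 1165 fragments in replicates 2, 3 and 4, which gave 12.9, 13.6 and 13.1 TPM, with a mean of 13.2 ± 0.396 TPM. The 3 libraries lay close together, with a coefficient of variation of 3.00%. S1pr4 (ENSMUSG00000044199.6), a family member expressed mainly in lymphoid and myeloid cells, is a single-exon gene on chr10:81497747-81500132 (minus strand). It had 852, 1408 and 2428 fragments, or 29.3, 41.2 and 34.8 TPM, with a mean of 35.1 ± 5.96 TPM. Replicate 3 was the highest and replicate 2 the lowest, but every S1pr4 value lay above every S1pr1 value. On the log2(TPM + 1) scale S1pr1 minus S1pr4 was -1.33 ± 0.20 (SD, n = 3), ranging from -1.53 to -1.13, and the mean TPM of S1pr1 was 0.376 times that of S1pr4. The difference had the same sign in 3 of 3 libraries, with an exact two-sided sign-flip p = 0.25, the smallest that 3 libraries allow, and an adjusted p = 0.25 over the 4 receptor pairs compared.

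S1pr4 made up 67.1 ± 2.91% and S1pr1 25.5 ± 2.55% of the summed TPM of the 5 family genes. S1pr2, which restrains migration, added 6.77 ± 0.610% at 3.52 ± 0.449 TPM. S1pr3 was at 0.264 ± 0.0296 TPM, and S1pr5, known from natural killer cells, had 2 fragments in all 3 libraries together. Expression of this family was thus spread over 3 genes in these cells, with S1pr4 the largest share.

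All 6 genes listed as governing S1pr1 expression or surface display were detected. Ccr7, which draws cells into lymph nodes and holds them there, was at 1263 ± 45.1 TPM. Klf2 and Foxo1, transcription factors that activate S1pr1, were at 71.5 ± 8.02 and 74.6 ± 4.06 TPM. Klf2 varied between libraries, at 70.3, 80.0 and 64.1 TPM in replicates 2, 3 and 4. Cd69, an activation marker whose protein binds S1pr1 protein and removes it from the surface, was at 65.8, 59.0 and 54.8 TPM in the same order. Stat3, a transcription factor, was at 87.2 ± 1.75 TPM. S1pr1 RNA itself therefore stood below the RNA of Klf2, Foxo1 and Cd69 in every library.

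Of 17 genes that make, move or break down sphingosine phosphate, 10 were detected and the median level was 3.26 TPM. The ceramide synthase genes Cers2 and Cers5, whose products acylate sphingoid bases, were highest at 153.7 ± 9.00 and 77.5 ± 1.00 TPM. Sgpl1, the lyase that destroys sphingosine phosphate, was at 51.8 ± 0.842 TPM. The kinase gene Sphk2 was at a similar level, with 44.3, 59.0 and 51.4 TPM in replicates 2, 3 and 4, in the same library order as S1pr4. Sgpp2 and Plpp3, both phosphatase genes, had no fragment. Outside the sphingosine phosphate genes proper, 7 of 14 further sphingosine and lysophospholipid receptor genes were detected, led by the lysophosphatidic acid receptor gene Lpar5 at 62.1 ± 2.40 TPM, while Lpar1 and Lpar3 had no fragment. Gpr55, a receptor for lysophosphatidylinositol, was at 7.94 ± 1.31 TPM.

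**Figure D2:**
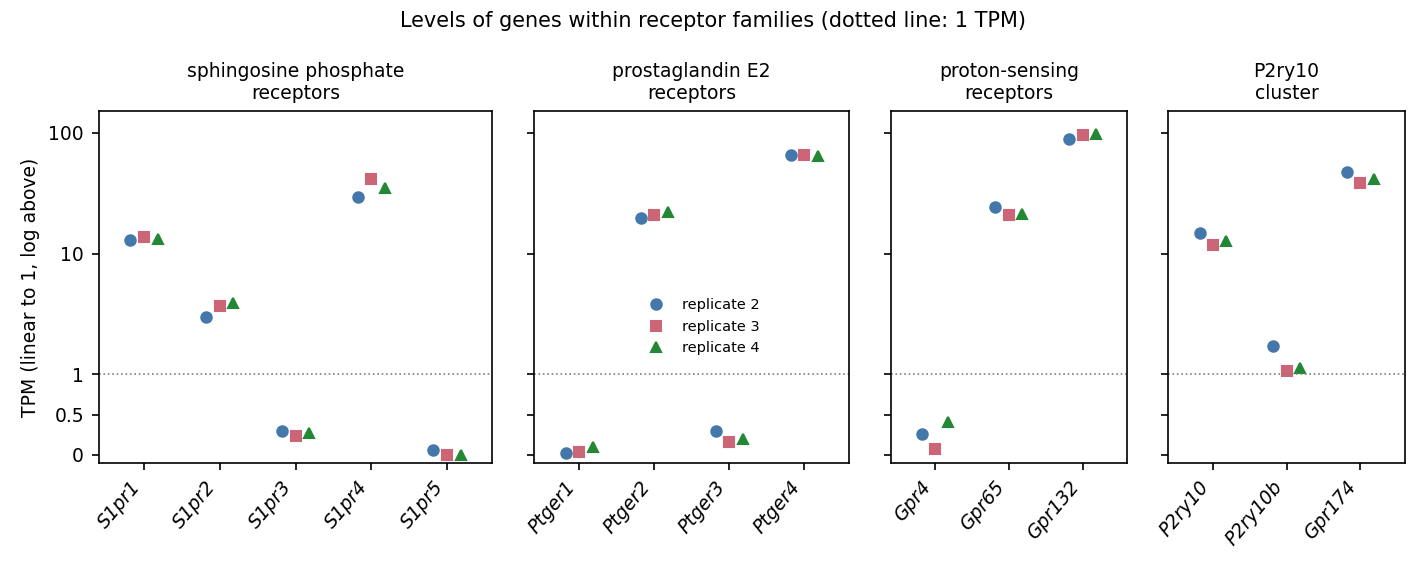
Levels in TPM of genes in the families of the listed receptors, with 1 point per library (the vertical axis is linear up to 1 TPM and logarithmic above). In each panel 2 or 3 genes lie above 1 TPM in every library, and S1pr4, Ptger4, Gpr132 and Gpr174 have the highest means of the genes shown in their panels.

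The prostaglandin E2 receptors were represented by 2 of 4 family genes, both coupled to the stimulatory G protein. Ptger4 (ENSMUSG00000039942.15), on chr15:5206661-5244187 (minus strand), gave 5316, 6194 and 12550 fragments in replicates 2, 3 and 4, equal to 65.5, 65.0 and 64.6 TPM. In TPM it varied least of the 10 receptors, at 65.0 ± 0.466 TPM with a coefficient of variation of 0.717%. That value lies below the counting error of Ptger4 in replicate 2, 1.37%, so such closeness may be accidental. In CPM, Gpr183 varied less relative to its mean, at 66.6 ± 0.683 against 128.5 ± 1.70 CPM for Ptger4. Ptger2 (ENSMUSG00000037759.5), on chr14:44988195-45003820 (plus strand), had 886, 1092 and 2383 fragments, or 19.7, 20.7 and 22.1 TPM, with a mean of 20.8 ± 1.22 TPM. The ranges of both genes were far apart. Ptger4 minus Ptger2 was 1.60 ± 0.09 on the log2(TPM + 1) scale (n = 3), from 1.504 to 1.684, and the mean TPM of Ptger4 was 3.12 times that of Ptger2 (exact two-sided sign-flip p = 0.25, adjusted p = 0.25). With the longest transcript as the length this difference was 2.39, and on CPM 2.44. Ptger4 shares 82 exonic bases with Ttc33, a gene on the opposite strand at 35.6 TPM, from which the stranded counting told it apart. Ptger4 took 75.5 ± 1.19% and Ptger2 24.2 ± 1.20% of the family sum, whereas Ptger3 and Ptger1 were at 0.2201 ± 0.0739 and 0.0541 ± 0.0348 TPM.

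In the list of other prostanoid and leukotriene receptors, which also holds formyl peptide receptor genes, 2 of 13 genes were detected. The thromboxane receptor gene Tbxa2r was at 20.02 ± 1.19 TPM, and the prostacyclin receptor gene Ptgir was at 3.02, 5.78 and 4.05 TPM in replicates 2, 3 and 4. The genes for the prostaglandin D2 receptors Ptgdr and Ptgdr2 had no fragment. Of 10 genes listed for prostaglandin E2 synthesis and breakdown, 3 were detected. That list also holds Hpgds, a prostaglandin D2 synthase gene. Ptges3, whose product is also a heat shock protein 90 cochaperone, was at 304, 234 and 243 TPM in replicates 2, 3 and 4, with replicate 2 standing above both other libraries. The exporter gene Abcc4 was at 34.7 ± 0.777 TPM and the synthase gene Ptges2 at 21.4 ± 1.00 TPM. Ptgs1, one of the cyclooxygenase genes, and Hpgd, whose product inactivates prostaglandin E2, had no fragment. The receptors for prostaglandin E2 were thus measured beside at most trace RNA of the cyclooxygenase genes, with Ptgs2 at 13 fragments in the 3 libraries together.

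Of the proton-sensing receptors listed, Gpr132 was the higher. Gpr132 (ENSMUSG00000021298.7), which responds to protons weakly and to oxidised fatty acids and is known for restraining autoimmunity in mice, lies on chr12:112850876-112860916 (minus strand). Its 2629, 3322 and 6998 fragments in replicates 2, 3 and 4 came to 88.3, 95.02 and 98.2 TPM, lowest in replicate 2. Gpr65 (ENSMUSG00000021886.7), a proton sensor that raises cyclic AMP, lies on chr12:98268635-98276644 (plus strand). It had 612, 616 and 1288 fragments, or 24.2, 20.8 and 21.3 TPM, with a mean of 22.1 ± 1.87 TPM and the highest value in replicate 2. All Gpr65 values lay below all Gpr132 values, and Gpr65 minus Gpr132 was -2.04 ± 0.19 on the log2(TPM + 1) scale (n = 3), from -2.15 to -1.82 (exact two-sided sign-flip p = 0.25, adjusted p = 0.25). In mean TPM, Gpr65 was 0.236 times Gpr132. Gpr4, known from endothelium, was at 0.248 ± 0.172 TPM.

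Of 16 annotated further receptors for protons and metabolites (fatty acids, lactate, succinate, bile acids, cannabinoids), the cannabinoid receptor gene Cnr2 was at 3.41 ± 0.318 TPM. There were 10 with no fragment in any library, among them the short-chain fatty acid receptor genes Ffar2 and Ffar3.

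Gpr183 and Gpr18 lie close to each other on chromosome 14. Gpr183 (ENSMUSG00000051212.7), the receptor for dihydroxylated oxysterols that positions lymphocytes in lymphoid tissue, lies on chr14:121952331-121965193 (minus strand) and had 2759, 3136 and 6641 fragments in replicates 2, 3 and 4. Its levels were 76.8, 74.4 and 77.2 TPM, with a mean of 76.1 ± 1.55 TPM. Gpr18 (ENSMUSG00000050350.7), a receptor with several proposed lipid ligands, lies on chr14:121911435-121915774 (minus strand) and had 695, 814 and 1640 fragments, or 43.5, 43.4 and 42.9 TPM. Both genes varied little, with coefficients of variation of 2.04% for Gpr183 and 0.784% for Gpr18, and their ranges did not overlap. The value for Gpr18 lies below its counting error in replicate 2, 3.79%. Gpr183 minus Gpr18 was 0.80 ± 0.04 on the log2(TPM + 1) scale (n = 3), from 0.76 to 0.83, and the mean TPM of Gpr183 was 1.76 times that of Gpr18 (exact two-sided sign-flip p = 0.25, adjusted p = 0.25). That difference was 1.92 on CPM and 1.10 with the longest transcript as the length. Both genes lie inside the span of Ubac2 on the opposite strand, at 54.1 TPM, but share 0 exonic bases with it, and the counting used strand.

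None of 6 genes for oxysterol synthesis and breakdown was detected at 1 TPM in every library. Hsd3b7, whose product inactivates the Gpr183 ligand, came closest at 0.957 ± 0.0678 TPM. Ch25h and Cyp7b1, which make that ligand in sequence, had no fragment in any library, where 3 fragments would have been at most 0.182 TPM for Ch25h and 0.113 TPM for Cyp7b1. Gpr183 RNA was therefore measured in cells in which RNA of the ligand's own synthesis was not detectable at this depth.

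P2ry10 (ENSMUSG00000050921.12), a receptor for lysophosphatidylserine, lies on chrX:107088492-107104974 (plus strand). In replicates 2, 3 and 4 it received 537, 501 and 1106 fragments, or 14.8, 11.7 and 12.7 TPM, with replicate 2 above both other libraries. Its neighbours on the X chromosome include further receptors of the same ligand, Gpr174 and P2ry10b. Gpr174 was at 47.5, 38.7 and 41.7 TPM and P2ry10b at 1.73, 1.07 and 1.13 TPM, so that all 3 genes were highest in replicate 2 and lowest in replicate 3. The shares within the cluster moved little between libraries, with P2ry10 at 22.9 ± 0.147%, Gpr174 at 74.8 ± 0.514% and P2ry10b at 2.27 ± 0.374% of the summed TPM. Lpar4, within 500 kb of P2ry10, had 2 fragments in all.

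Gpr83 is used as a marker of regulatory T cells, and a neuropeptide cut from proSAAS is among its proposed ligands. The gene (ENSMUSG00000031932.14) lies on chr9:14860210-14870789 (plus strand) and received 1180, 1309 and 2683 fragments in replicates 2, 3 and 4, equal to 19.0, 17.9 and 18.02 TPM. The mean was 18.3 ± 0.582 TPM, eighth of the 10, and the libraries were close together. Pcsk1n, the proSAAS gene, had no fragment, and Pcsk1, which cuts prohormones, had 0, 35 and 1 fragments in replicates 2, 3 and 4. The protein-coding genes nearest to Gpr83 by Euclidean distance of log2(TPM + 1) over the 3 libraries were Lipt2, Dbf4 and Swap70, at distances of 0.0175 to 0.0352. The genes nearest to Gpr132 were Vps52, Xab2 and Polr3c, at 0.0194 to 0.0394. With 3 libraries of 1 group, such nearness reflects a like level and like small deviations, and nothing further was read from it.

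The stretches of genome just before the transcript starts are shown for 4 receptors because they hold the most and the fewest CG dinucleotides, the sites of DNA methylation in mammals, of the receptor windows, and can be set beside the RNA levels. They are RefSeq windows of assembly GRCm38.p6, the assembly that mm10 stands for, given 5′ to 3′ on the strand of the gene with each CG in capitals. The windows are chr15:5244188-5244437 (minus strand) for Ptger4, chr9:14859960-14860209 (plus strand) for Gpr83, chr14:121965196-121965443 (minus strand) for Gpr183 and chr10:81500138-81500387 (minus strand) for S1pr4.
Ptger4: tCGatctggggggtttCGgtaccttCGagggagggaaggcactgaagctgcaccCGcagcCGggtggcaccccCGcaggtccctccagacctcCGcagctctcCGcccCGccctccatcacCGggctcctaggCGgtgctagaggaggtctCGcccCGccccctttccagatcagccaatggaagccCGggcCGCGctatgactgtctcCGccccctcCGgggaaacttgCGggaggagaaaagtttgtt
Gpr83: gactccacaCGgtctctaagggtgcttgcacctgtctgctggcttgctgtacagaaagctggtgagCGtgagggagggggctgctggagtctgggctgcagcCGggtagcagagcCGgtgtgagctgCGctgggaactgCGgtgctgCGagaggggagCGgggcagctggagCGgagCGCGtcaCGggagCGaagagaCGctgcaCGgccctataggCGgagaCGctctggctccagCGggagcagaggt
Gpr183: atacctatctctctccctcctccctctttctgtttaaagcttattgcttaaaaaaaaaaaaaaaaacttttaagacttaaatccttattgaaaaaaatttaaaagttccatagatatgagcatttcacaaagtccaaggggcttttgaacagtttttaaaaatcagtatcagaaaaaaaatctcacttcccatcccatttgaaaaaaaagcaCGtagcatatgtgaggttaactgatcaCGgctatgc
S1pr4: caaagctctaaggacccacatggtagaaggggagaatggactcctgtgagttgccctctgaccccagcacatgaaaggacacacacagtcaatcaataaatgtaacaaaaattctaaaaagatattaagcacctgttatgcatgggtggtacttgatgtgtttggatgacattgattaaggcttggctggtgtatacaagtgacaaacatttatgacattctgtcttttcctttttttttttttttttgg

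The Ptger4 window held 19 CG and the Gpr83 window 18, against 2 in the Gpr183 window and 0 in the S1pr4 window. The Gpr183 window was shortened to 248 bases to leave out an annotated exon. The search was for the letters CG, which read the same on both strands. Of 32851 such windows for 27025 genes, 92.1% held at least 1 CG, 21.7% held 18 or more, and the median window held 6. Gpr132 held 6, the windows of Gpr65, Ptger2 and Gpr18 held 3 each, and P2ry10 had windows with 3 and 5. Beside these sequences, Ptger4 and Gpr183 RNA stood at 65.0 and 76.1 TPM, while Gpr83 and S1pr4 RNA stood at 18.3 and 35.1 TPM. The CG-rich pair and the CG-poor pair thus each held 1 gene above 60 TPM and 1 below 40 TPM, which is a description of 4 chosen genes. S1pr1 has no entry in the sequence table used.

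Among 277 receptor genes chosen by symbol, 59 (21.3%) were detected at 1 TPM in every library. All 10 listed receptors stood among the 30 highest by mean TPM, though not in every single library. By mean TPM, Ccr7 ranked first, the chemokine receptor gene Ccr8 second at 873 ± 39.3 TPM, and Gpr132 ranked 3. Gpr183 ranked 6, Ptger4 8, Gpr18 13, S1pr4 17, Gpr65 21, Ptger2 23, Gpr83 26, S1pr1 28 and P2ry10 29. These ranks depended on the library and the scaling: Gpr132 ranked 4 in replicate 2. P2ry10 ranked 27, 33 and 31 in replicates 2, 3 and 4, and so lay outside the 30 highest in replicates 3 and 4. By mean CPM, Gpr132 ranked 7, Ptger4 4 and Gpr18 24. The median of the 49 other detected receptor genes was 8.90 TPM. The 10 genes together held 11.5% of the summed TPM of the 277. Since they had been listed as lymphocyte receptors with these data already known, this rank is a description.

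**Figure D3:**
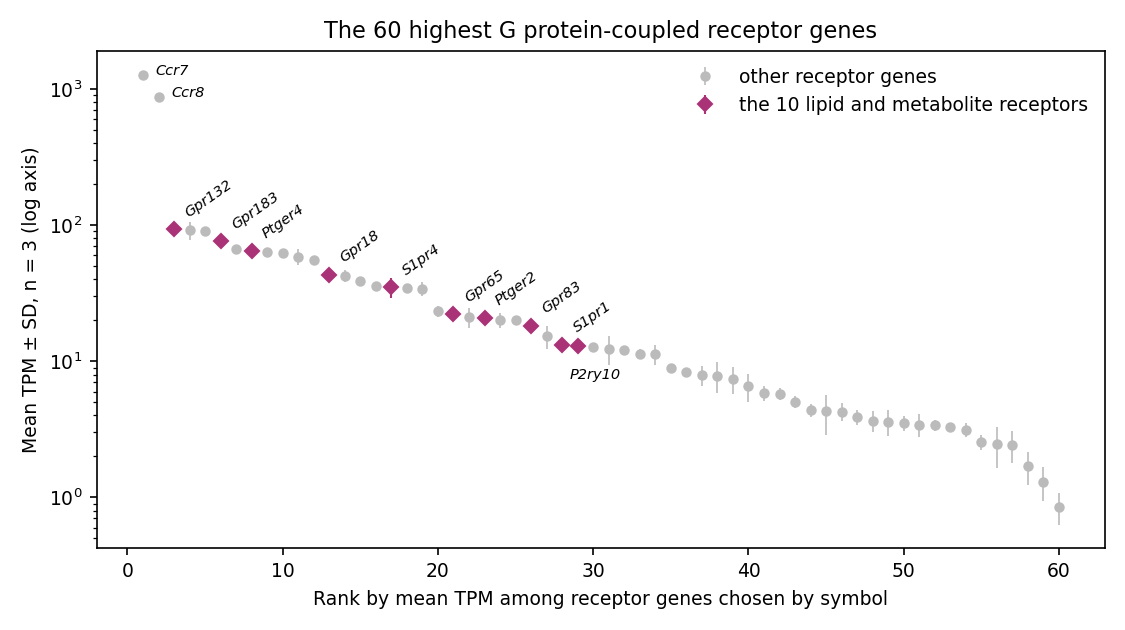
Mean TPM ± SD (n = 3, log axis) of the 60 highest receptor genes by rank, with the 10 lipid and metabolite receptors as diamonds. Ccr7 and Ccr8 stand apart at 1263 and 873 TPM, and the 10 receptors occupy ranks 3 to 29.

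In each list of genes that couple these receptors to the cell interior, levels ran from above 100 TPM to no fragment. Of 13 G protein alpha subunit genes, 7 were detected and the median was 5.01 TPM, with the inhibitory subunits Gnai2 and Gnai3 at 319 ± 15.8 and 191 ± 12.1 TPM and the stimulatory subunit Gnas at 169 ± 5.46 TPM. Gnai1 and Gnao1 had no fragment. Of 15 RGS genes, whose products end G protein signals, 9 were detected with a median of 4.33 TPM, led by Rgs16 at 268 ± 17.6, Rgs10 at 151 ± 1.43 and Rgs19 at 143 ± 9.45 TPM, while Rgs4 and Rgs5 had no fragment. Receptor desensitisation genes were detected in 5 of 7 cases with a median of 8.28 TPM, the kinase genes Grk2 and Grk6 standing at 312 ± 17.5 and 285 ± 10.7 TPM and the arrestin gene Arrb2 at 149.9 ± 6.43 TPM. Grk3 had no fragment. Each of these leading genes exceeded every one of the 10 receptors in level per length.

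The list drawn up for the cyclic AMP pathway, downstream of Ptger2, Ptger4 and Gpr65, had 19 of 26 genes detected and a median of 19.2 TPM. Prkar1a, a regulatory subunit of protein kinase A, was at 282 ± 7.88 TPM and the transcription factor gene Atf1 at 99.3 ± 9.32 TPM. The listed exchange factor gene Rapgef1, whose product does not bind cyclic AMP, was at 168 ± 10.1 TPM. Rapgef3, the listed exchange factor gene whose product does, was at 0.154 ± 0.128 TPM. The adenylyl cyclase genes Adcy2 and Adcy5 had no fragment. The share of detected genes per list thus ran from 0 of 6 for oxysterol enzymes to 6 of 6 for genes governing S1pr1, beside the background of 45.6% of protein-coding genes.

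**Figure D4:**
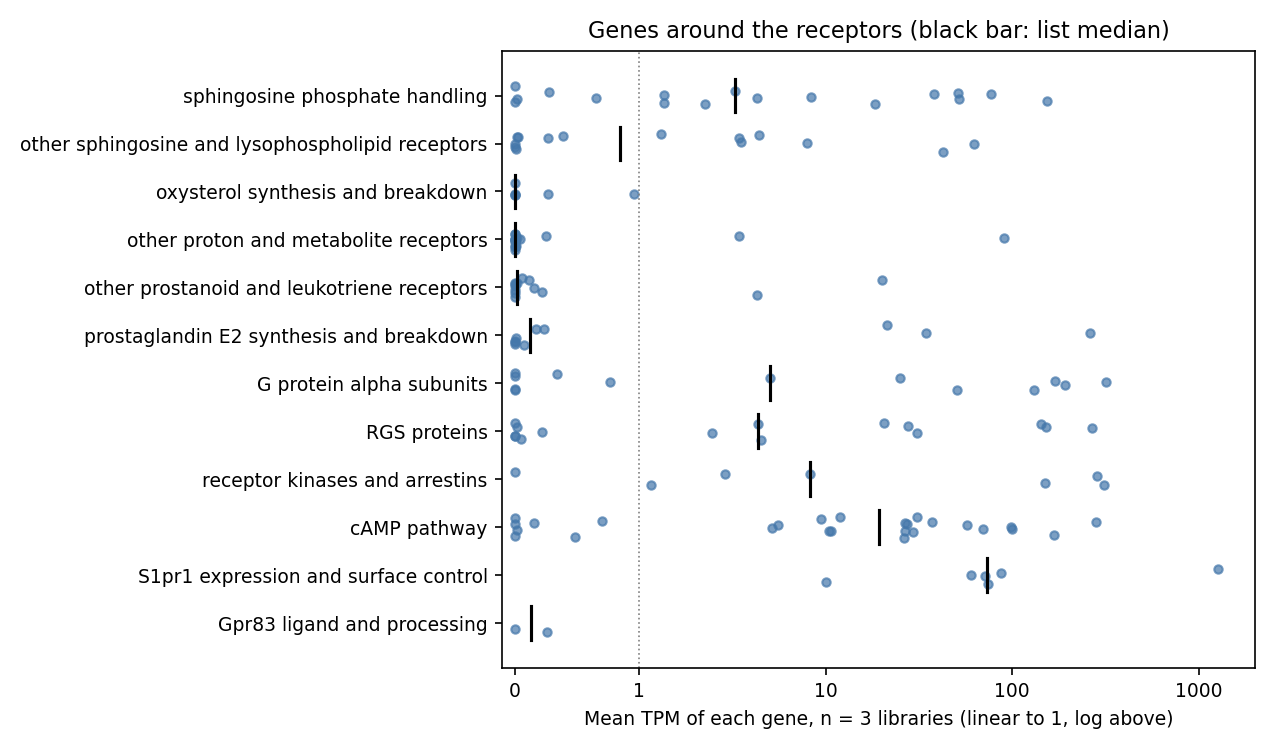
Mean TPM over 3 libraries of every gene in the 12 lists around the receptors (1 point per gene, black bars at list medians; the axis is linear up to 1 TPM and logarithmic above). Genes of S1pr1 control and the cyclic AMP pathway have the highest medians, 73.0 and 19.2 TPM, and most oxysterol and metabolite receptor genes lie at 0.

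Between the libraries, the highest-to-lowest ratio of the 10 receptors was at most 1.44. This ratio was taken on counts over TMM effective library sizes, with a count of 0 set to 3. A chi-square test of equal rates per gene was run over 13688 genes. A gene was called different when its Benjamini-Hochberg adjusted p was under 0.05 and its highest-to-lowest ratio was at least 2. By this rule 0 of 10 receptors were called, where 10.9% of all genes tested were. At a ratio of 1.5 it was also 0 of 10, against 16.1%. By the adjusted p alone 5 of 10 were below the threshold, and 5 of 10 by the unadjusted p, against 70.8% and 73% of all genes tested. Fragments are treated as independent in that test, which speaks of these libraries only. The median coefficient of variation of the 10 genes was 4.27%, beside 6.73% for the 5733 protein-coding genes at 10 to 100 TPM. A higher coefficient than that of Ptger4 was found in 99.0% of those 5733 genes, and a higher one than that of S1pr4 in 2.77%. In TPM the receptors therefore ranged from among the least to among the most variable genes of their level. The coefficient of Ptger4 was below its counting error in replicate 2, 1.37%, so its place in that range is uncertain.

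S1pr4 moved most. In CPM it had 20.7 (95% Wilson interval 19.3 to 22.1) in replicate 2, 29.5 (28.0 to 31.1) in replicate 3 and 24.5 (23.5 to 25.5) in replicate 4, so that no interval overlapped another. On TMM effective library sizes its highest-to-lowest ratio was 1.44, with an adjusted p of 1.07e-15 in the chi-square test. P2ry10 followed with a ratio of 1.23 (adjusted p = 0.00293, chi-square test), then Gpr65 with 1.14 (adjusted p = 0.0255) and Ptger2 with 1.12 (adjusted p = 0.0223). For Gpr132 the ratio was 1.11 (adjusted p = 6.88e-05, chi-square test). For Gpr183, Ptger4, Gpr18, Gpr83 and S1pr1 the ratio was at most 1.08 and the adjusted p at least 0.188.

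These deviations moved with the base composition of the transcripts. P2ry10, the receptor with the lowest GC content at 36.9%, was 0.27 higher in replicate 2 than in the other libraries on the log2 CPM scale, and S1pr4, the one with the highest at 59.3%, differed by -0.39. Across the 10 receptors, GC content and this difference had a Pearson r of -0.90 and a Spearman rho of -0.81. Across 7743 protein-coding genes at 10 TPM or more, they had an r of -0.53 and a rho of -0.74, and GC content and the deviation of replicate 3 had an r of 0.42 and a rho of 0.46. Genes are not independent, and all these points share the same 3 libraries. With library sizes matched on GC content, an alternative chosen after seeing the data, 4 of 10 receptors had an adjusted p under 0.05 in the chi-square test, against 62.4% of 13665 genes. S1pr4 was among them, with a ratio of 1.26 and an adjusted p of 1.39e-08. P2ry10 was no longer below the threshold (ratio 1.06, adjusted p = 0.589), nor were Gpr65 (adjusted p = 0.871) and Gpr132 (adjusted p = 0.186). Ptger4 (ratio 1.10, adjusted p = 9.51e-07) and Gpr183 (ratio 1.07, adjusted p = 0.0134) fell below it, and Ptger2 stayed below it at a ratio of 1.20 (adjusted p = 7.37e-05).

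For P2ry10 the X chromosome moved as well. The 220 X-linked protein-coding genes at 10 TPM or more had a median difference of 0.08 on the log2 CPM scale between replicate 2 and the other libraries, against 0.00 for 7513 autosomal ones, and Xist was highest in replicate 2. Gpr174 was 0.23 higher there, and the next gene along the chromosome, Itm2a, 0.11 higher. The part of X linkage in the P2ry10 values was not tested.

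**Figure D5:**
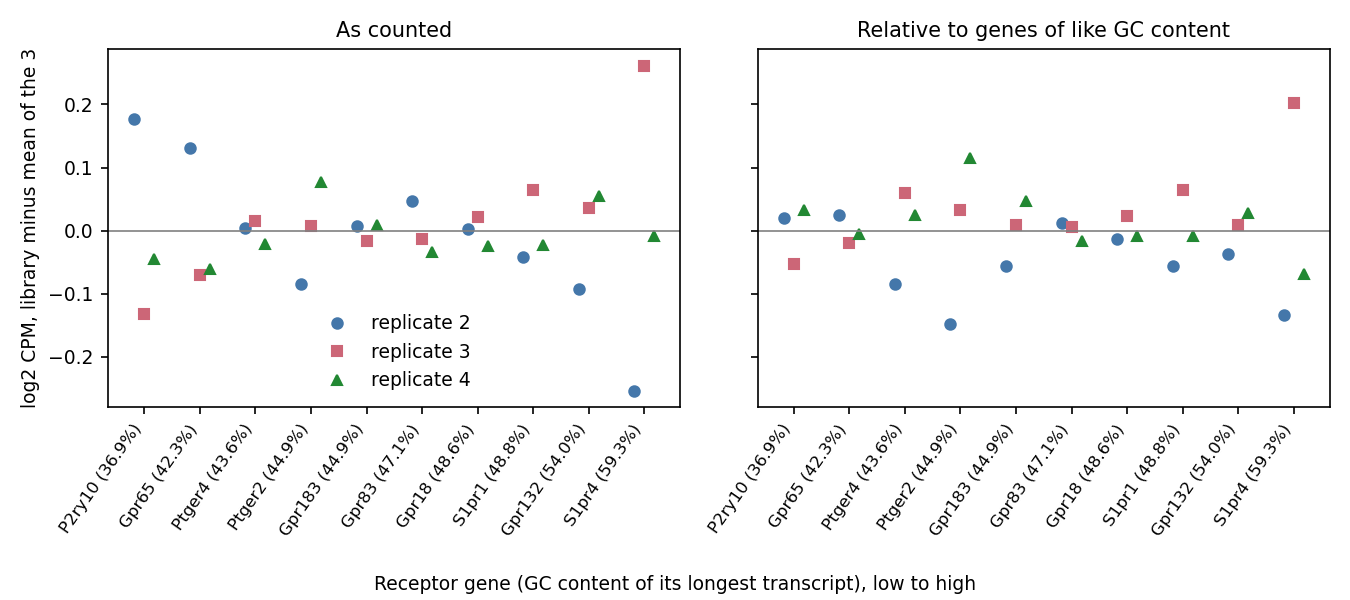
Deviation of each library from the mean of the 3 in log2 CPM for each receptor, ordered by GC content of the longest transcript, as counted (left) and relative to genes of like GC content (right). P2ry10 and Gpr65 are high in replicate 2 as counted and close to the others at right, whereas S1pr4 stays high in replicate 3 in both panels.

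Between the libraries, 10 of the 90 tested genes in the lists around the receptors were called different (11.1%), near the 10.9% of all genes tested, and all 10 had low counts. Mfsd2b, an exporter of sphingosine phosphate, was at 1.35, 0.881 and 1.83 TPM in replicates 2, 3 and 4, and the receptor kinase gene Grk4 at 1.12, 0.708 and 1.64 TPM. Adcy4, Gnal, Rapgef3, Gpr34, Gpr4, Cyp39a1, Hpgds and Pcsk1 all stayed below 1 TPM in every library, with Gpr34, a lysophosphatidylserine receptor gene, at 2, 23 and 19 fragments.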

How the data were processed

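The assay label of the 3 regulatory T cell libraries reads total RNA, whereas the library protocol it links is named for polyadenylated RNA. The authors deposited raw counts of fragments per gene, with merged exon lengths and coordinates. Per the file headers, featureCounts 1.4.6-p4 counted read pairs, reverse-stranded (option 2), both ends aligned, over exons of GENCODE mouse M13. The build is mm10 per the labels. The headers' alignment file names refer to STAR, whose version was not given in the sources used here. By that counter's defaults, fragments that align to several places are left out.

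Symbols came from GENCODE M21 by unversioned identifier (50376 of 50600 matched). TPM was computed here as count over merged exon length, scaled per library. "Detected" means 1 TPM or more in every library. Libraries were compared with a chi-square test of equal rates (2 degrees of freedom) over genes with a summed count of 30 or more. It used TMM effective library sizes from edgeR 4.0.16 and Benjamini-Hochberg adjustment. The test was checked on simulated counts with counting noise only. These libraries differed by far more than that, so the check gives no error rate for them. With 1 group, no condition could be tested, and edgeR's common biological coefficient of variation was 11.1%. Receptor pairs were compared by exact two-sided sign-flip tests on log2(TPM + 1) with a pseudocount of 1. The tools were R 4.3.3, DESeq2 1.42.0, scipy 1.17.1, pandas 2.3.3, numpy 2.4.6 and Python 3.11.15. Intervals and floors of 3 fragments cover counting error only.

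The 10 receptors and the lists around them were chosen with earlier results of these data known. By rule, the text names all 10, the 3 highest genes of each list, those called between libraries, at most 2 per list without a fragment, the 3 highest receptor genes, and the 3 genes nearest to Gpr132 and to Gpr83. Other genes of the families, of the S1pr1 list and of the P2ry10 neighbourhood, and Ptgs2, were named after their values were seen. The alternatives were CPM, TMM-scaled TPM, other thresholds, filters, pseudocounts and size factors, and leaving out each library. TPM by the longest transcript and GC-matched library sizes were chosen after seeing the data. Some genes of the families and lists are not reported here.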

Additional observations from a re-analysis of the deposited data

How the results depend on the processing

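The median level of the 10 receptors was 28.6 TPM, 23.9 in CPM and 22.6 TPM with the longest transcript as the length. Without each replicate in turn it ranged from 27.4 to 29.7 TPM. All 10 stayed detected under every alternative run, 10 TPM included. No receptor was called different between libraries under TMM, DESeq2 or plain library sizes, without a count filter, at a ratio of 1.5, with GC-matched sizes or without any 1 replicate; 5 passed by the adjusted p alone. The 4 pair differences kept their sign under all alternatives run. Counted at 10 TPM in place of 1 TPM, the lists held 6 in place of 10 sphingosine phosphate handling genes and 2 in place of 7 other lysophospholipid receptors. They held 1 in place of 2 other proton and metabolite receptors, and 1 in place of 2 other prostanoid and leukotriene receptors. Kinases and arrestins fell from 5 to 3, G protein alpha subunits from 7 to 6 and RGS genes from 9 to 6. Cyclic AMP pathway genes fell from 19 to 15 and genes governing S1pr1 from 6 to 5. The other lists kept their counts. No paired analysis was possible because there is 1 group. With 3 libraries no sign-flip p can pass 0.05, and a gene without a fragment may still lie at a level of up to 3 fragments, 0.182 TPM for Ch25h.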
